A study of Mus musculus with 18 samples.

Results

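The integrated stress response is the program by which cells answer amino acid shortage, misfolded protein in the endoplasmic reticulum and other insults. Stress-sensing kinases phosphorylate the translation initiation factor eIF2, which lowers protein synthesis in general and raises translation of the transcription factor ATF4. ATF4 and its partners then switch on genes for amino acid supply and uptake, for the aminoacyl-tRNA synthetases that load amino acids onto tRNA, and for feedback on the response itself. Because ATF4 is controlled largely through translation and protein turnover, mRNA levels describe the transcripts of this program and do not measure eIF2 phosphorylation or ATF4 protein.

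The genes described here are 34 transcripts of that program, taken by symbol from the 24394 gene symbols present in all 3 deposited count tables. All 34 symbols were found in each table. By role they are 8 transcription factors, 6 feedback and growth regulators, 3 enzymes of amino acid metabolism, 4 secreted or surface proteins, and 13 genes of tRNA charging and export, of which 12 encode cytosolic tRNA synthetases.

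RNA-seq was run on 18 libraries labelled as mouse esophageal organoids, which are 3-dimensional cultures grown in Matrigel. Every group, the controls included, is labelled with the genotype Trp53-/-, Myc OE (Myc overexpression) and sgCdkn2a. Premalignant organoids with sgScr (the control guide, n = 3) were set against premalignant organoids with sgTgfbr2, of which the labels number 2 lines, each with 2 libraries. Tumor organoids with sgScr (n = 3) were set against tumor organoids with sgTgfbr2 (n = 2). Tumor organoids with sgTgfbr2 were also given DMSO (the vehicle, n = 3) or 2 µM pinaverium bromide (PB, a calcium channel blocker, n = 3) after 72 h of culture, and the length of treatment is not given in the labels. The medium of all groups contained 2 µM A83-01, a small molecule that blocks TGF-beta receptor kinases, per the labels' growth protocol. Whether a replicate was its own culture or mouse, whether a line was a clone and whether the 2 lines used different guides is not stated, so p-values rest only on library-to-library spread, part or all of which may be technical.

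Libraries held 14993749 to 21784140 counts. Tgfbr2, the targeted gene, stood at 179 to 219 CPM (counts scaled to a library total of 1e+06) in premalignant sgScr and at 86.2 to 131 CPM in premalignant sgTgfbr2. It stood at 112 to 129 CPM in tumor sgScr and 67.5 to 71.2 CPM in tumor sgTgfbr2, so its transcript was lower but present in the sgTgfbr2 libraries of both pairs. Myc stood at 290 to 647 CPM in the premalignant libraries and 344 to 416 CPM in vehicle and PB. It stood at only 41.8 to 47.5 CPM in the libraries labelled tumor sgScr and 51.8 to 93.3 CPM in those labelled tumor sgTgfbr2. These 5 libraries were thus the lowest for Myc although all groups share the label Myc OE. No group lacks that label, so the level without overexpression is not known. Squamous epithelial markers were detected in every group, 9 of 9. The 5 libraries labelled tumor sgScr and tumor sgTgfbr2 also stood apart in markers of other tissues, against a label of epithelial organoids. Summed muscle markers ran from 20493 to 21213 CPM in tumor sgScr and from 231 to 277 CPM in tumor sgTgfbr2, and summed gastric gland markers from 0.119 to 0.741 CPM in tumor sgScr and from 29194 to 32165 CPM in tumor sgTgfbr2. The vehicle libraries carry the same genotype label as tumor sgTgfbr2, and their summed gastric gland markers were 2.91 to 4.5 CPM. In the 5 libraries fibroblast markers summed to 2301 to 3046 CPM, immune markers to 734 to 912 CPM and endothelial markers to 114 to 131 CPM. Lyz2, a gene of macrophages, stood at 572 to 763 CPM in them and at 0 in vehicle and PB. Cd68, another immune marker, went the other way, at 24.6 to 30.0 CPM in them and 37.0 to 43.7 CPM in vehicle and PB. The tumor comparison rests on these 5 libraries alone, so it has no value without them.

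Summed over the 34 genes, levels were 5352 to 5486 CPM in premalignant sgScr and 4134 to 4643 CPM in premalignant sgTgfbr2. The sums were 2040 to 2095 CPM in tumor sgScr, 2628 to 2663 CPM in tumor sgTgfbr2, 6133 to 6193 CPM in vehicle and 9754 to 9830 CPM in PB. These sums are weighted toward the most abundant members, and no test was made across tables. Within each table the sums of the 2 groups did not overlap, and the PB libraries held the highest sums of the series. Summed over the listed synthetases alone, tumor went the other way, with 1170 to 1202 CPM in sgScr and 1040 to 1096 CPM in sgTgfbr2. The higher tumor sum therefore does not speak for the members as a group. In the premalignant and PB comparisons the synthetase sum went the same way as the sum over all 34.

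A regulatory element known from this response is the C/EBP-ATF response element, to which ATF4 binds together with C/EBP proteins. Its core, TGATGNAA (TTNCATCA on the other strand), was searched on both strands in the RefSeq promoter windows of build GRCm38.p6. These run from 250 bases before to 50 bases after a listed transcription start, which may lie inside the gene's span. A gene may have more than 1 window. Of the 34 genes, 28 had a window, and 13 of these 28 (46.4%) held the core, against 689 of 17224 genes of the premalignant counts with a window (4.0%). The members were listed as genes of this response, and the element is known from it. The higher share therefore follows at least in part from that choice and is given as a description. No other motif was searched, and a match describes letters, not a bound site. The 8 stretches that follow belong to the members with the core whose difference under PB, described next, had the smallest p-values. Each stretch covers 120 bases before the start and 30 from it, written 5′ to 3′ on the gene's strand, and capitals mark the core on either strand.
Atf3, chr1:191183304-191183453, minus strand: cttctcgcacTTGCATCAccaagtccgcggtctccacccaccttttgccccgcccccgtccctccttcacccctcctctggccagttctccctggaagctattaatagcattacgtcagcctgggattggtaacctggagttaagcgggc
Aars, chr8:111033722-111033871, plus strand: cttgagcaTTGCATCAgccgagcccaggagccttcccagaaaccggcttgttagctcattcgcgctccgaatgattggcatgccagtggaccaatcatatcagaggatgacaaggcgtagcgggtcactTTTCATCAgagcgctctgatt
Asns, chr6:7693180-7693329, minus strand: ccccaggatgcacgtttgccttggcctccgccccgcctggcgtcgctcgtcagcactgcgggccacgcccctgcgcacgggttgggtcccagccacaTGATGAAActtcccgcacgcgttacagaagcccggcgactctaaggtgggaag
Gars, chr6:55037881-55038030, plus strand: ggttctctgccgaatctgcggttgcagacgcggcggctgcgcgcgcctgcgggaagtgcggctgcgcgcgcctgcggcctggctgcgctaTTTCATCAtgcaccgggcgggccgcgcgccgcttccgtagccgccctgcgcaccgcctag
Iars, chr13:49682010-49682159, plus strand: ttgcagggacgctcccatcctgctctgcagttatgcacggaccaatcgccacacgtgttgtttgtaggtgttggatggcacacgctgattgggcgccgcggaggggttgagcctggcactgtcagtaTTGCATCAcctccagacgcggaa
Tars, chr15:11399629-11399778, minus strand: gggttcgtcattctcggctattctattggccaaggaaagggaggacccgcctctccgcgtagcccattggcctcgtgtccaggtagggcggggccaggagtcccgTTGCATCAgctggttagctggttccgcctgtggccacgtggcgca
Trib3, chr2:152344031-152344180, minus strand: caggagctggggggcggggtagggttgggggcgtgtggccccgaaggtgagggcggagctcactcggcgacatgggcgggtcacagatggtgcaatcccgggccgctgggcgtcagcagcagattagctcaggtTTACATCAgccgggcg
Yars, chr4:129189783-129189932, plus strand: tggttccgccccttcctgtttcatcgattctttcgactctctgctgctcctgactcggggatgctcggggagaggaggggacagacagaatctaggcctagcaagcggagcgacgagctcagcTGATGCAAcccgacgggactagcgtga

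Across the 13 promoters 8 of 14 matches read TTGCATCA on the gene's strand, and 2 read TGATGCAA, which is the same site on the other strand. Aars, the alanyl-tRNA synthetase, was the member with 2 matches. The other members with the core were Chac1, Nupr1, Fgf21, Jdp2 and Vldlr, of which Jdp2 and Vldlr held it in their window 2 only. The core starts 110 bases before the start of both Atf3 and Nupr1, and it lies past the start in Trib3, Iars, Yars and 1 of the matches of Aars, at 14, 7, 3 and 9 bases from it. No window was at hand for Eif4ebp1, Nars, Cth, Lars, Cars and Wars.

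The comparison of PB with vehicle asks what the drug did to these transcripts in sgTgfbr2 tumor organoids. Nearly the whole group was higher under PB: 30 of 34 members rose, 2 fell and 2 did not pass the test (edgeR's quasi-likelihood test, Benjamini-Hochberg adjusted p under 0.05 over all genes tested). The background is wide, since 73.3% of all 12801 genes tested passed in this comparison, 36.5% higher and 36.8% lower, and the members' counts are read against those shares. Replicates were close, with chi-square per degree of freedom over genes of 1.79 to 2.03 in vehicle and 1.51 to 1.65 in PB. Within the other labelled groups it was 6.42 to 21.3, so the PB p-values rest on a narrower spread than those of the other comparisons. The median log2 fold change of the members was 0.90, against -0.01 over all genes. Fold changes here and below come from the fit, which scales libraries by TMM, while CPM uses library totals. A fold change can therefore differ from the ratio of the CPM means beside it. Ddit3, which encodes the transcription factor CHOP, had the largest rise, 9.65-fold, and all 12 listed tRNA synthetases rose by 1.51-fold to 2.54-fold. Atf3, a stress-induced transcription factor, and Ddit4, an inhibitor of mTORC1 signalling, fell.

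**Figure D1:**
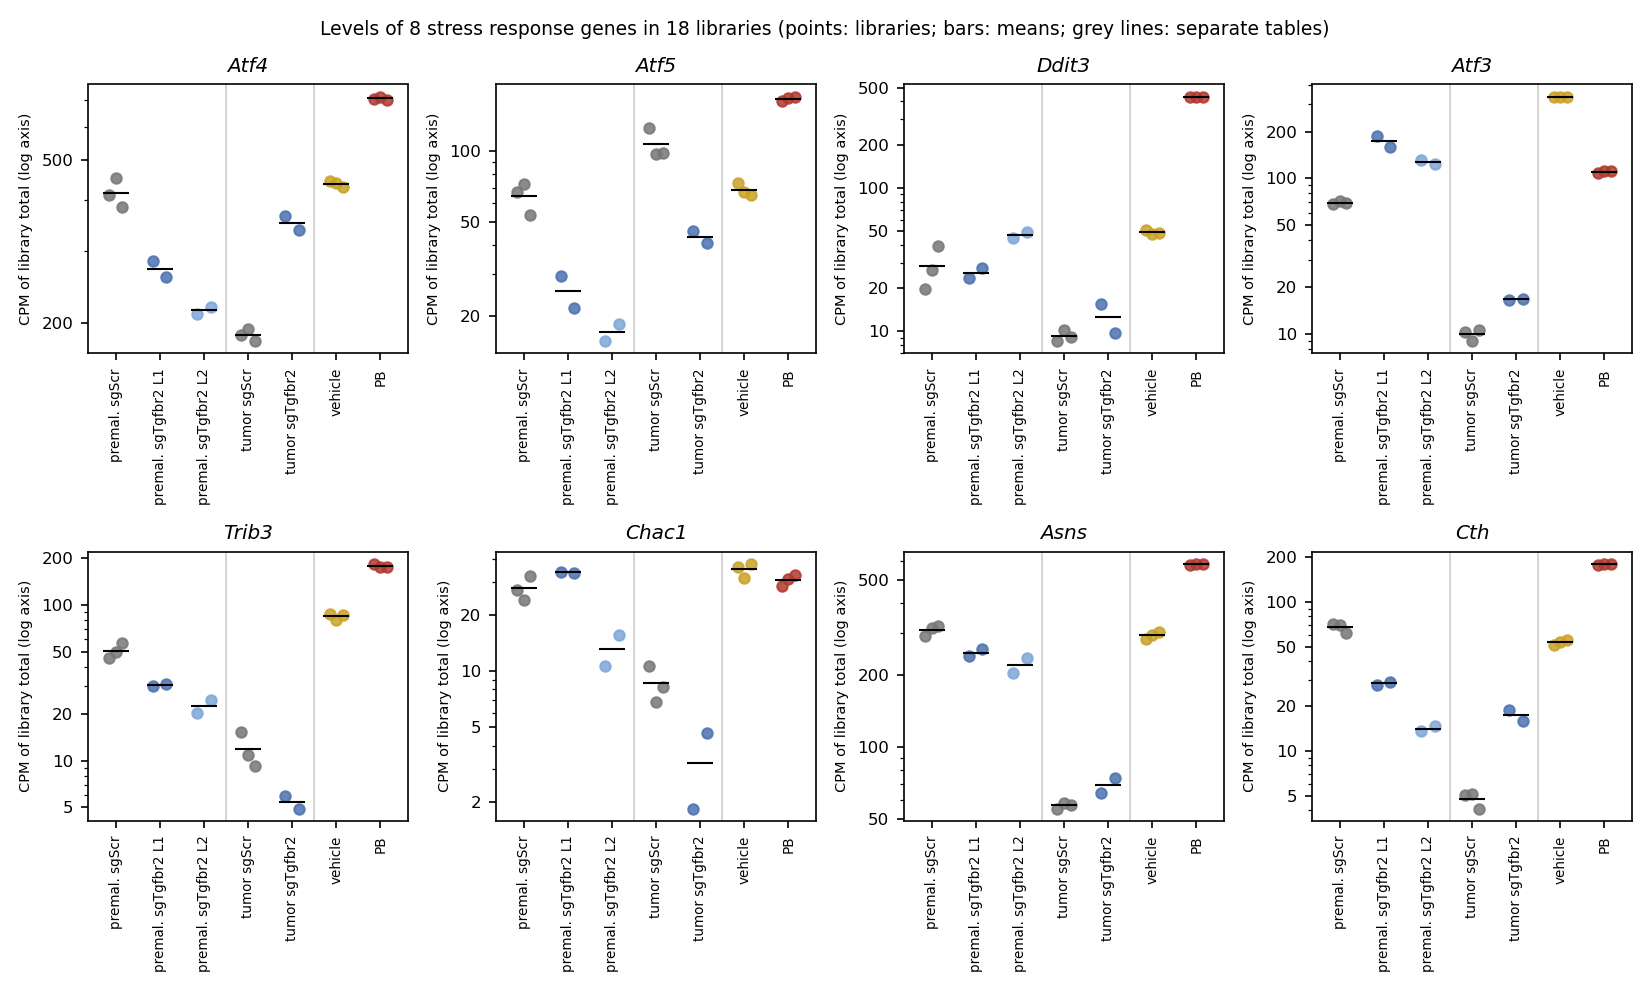
CPM of the library total (log axis) of Atf4, Atf5, Ddit3, Atf3, Trib3, Chac1, Asns and Cth in each of 18 libraries (points) with group means (bars); L1 and L2 are the premalignant sgTgfbr2 lines 1 and 2, and grey lines separate the 3 tables. The PB libraries are the highest of all for Atf4, Atf5, Ddit3, Trib3, Asns and Cth, while Atf3 is at 108 to 112 CPM in PB and 331 to 335 CPM in vehicle.

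Among the transcription factors, Ddit3 (chr10:127290793-127296291, GRCm38.p6) stood at 50.7, 47.5 and 48.4 CPM in the vehicle libraries and at 428, 426 and 431 CPM in the PB libraries. The groups were far apart and the replicates close together, with a log2 fold change of 3.27 ± 0.03 (SE; adjusted p = 1.5e-69). Atf4 (chr15:80255184-80257545, GRCm38.p6), the central activator of the program, stood at 443, 440 and 428 CPM in vehicle and at 706, 714 and 700 CPM in PB. Its rise was 0.83 ± 0.02 on the log2 scale, 1.78-fold, without overlap. Atf5, a relative of Atf4 that is also controlled through translation, stood at 73.2, 66.8 and 65.0 CPM in vehicle and 163, 168 and 170 CPM in PB, a log2 fold change of 1.43 ± 0.04. Cebpg, a C/EBP family partner of ATF4, rose 2.2-fold in the fit, with a mean of 126 CPM in vehicle and 252 CPM in PB. Jdp2, a repressor of the AP-1 family, rose 1.98-fold, Nupr1, a small stress-induced chromatin protein, 1.42-fold, and Cebpb 1.25-fold.

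Atf3 moved the other way from the factors above. Its level was 333, 331 and 335 CPM in vehicle and 108, 112 and 112 CPM in PB, a log2 fold change of -1.45 ± 0.03 (adjusted p = 2e-51). Its promoter carries the core shown above, as do those of Trib3, Asns, Aars, Gars, Iars, Tars and Yars, which rose. Over the 28 members with a window, 11 of the 13 with the core rose and 1 fell, with a median log2 fold change of 0.99, and 13 of the 15 without it rose and 1 fell, with a median of 0.78.

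Among feedback and growth regulators 3 of 6 rose and 1 fell. Ppp1r15a encodes GADD34, the stress-induced subunit that directs a phosphatase to eIF2. It stood at 89.8, 96.5 and 90.7 CPM in vehicle and at 217, 231 and 233 CPM in PB, a rise of 1.44 ± 0.03 on the log2 scale. Trib3, a pseudokinase that restrains ATF4 and CHOP, stood at 87.2, 79.3 and 85.9 CPM in vehicle and 182, 174 and 173 CPM in PB, a rise of 1.21 ± 0.03. Eif4ebp1, the translation repressor 4E-BP1, rose 1.45-fold in the fit, with a mean of 168 CPM in vehicle and 222 CPM in PB. Ddit4 stood at 550, 532 and 558 CPM in vehicle and 332, 322 and 321 CPM in PB, a log2 fold change of -0.61 ± 0.02.

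Chac1, an enzyme that degrades glutathione and a marker much used for this response, did not follow Ddit3 and Trib3. It stood at 36.0, 31.6 and 37.4 CPM in vehicle and at 28.3, 31.0 and 32.7 CPM in PB. The groups overlapped, and the log2 fold change of -0.05 ± 0.07 did not pass (adjusted p = 0.48). Sesn2, a leucine sensor upstream of mTORC1, had a log2 fold change of -0.10 ± 0.06 and did not pass either. When libraries were scaled by their totals alone, the median of all genes moved to -0.15, the calls over all genes became 3301 higher and 6155 lower, and Chac1 and Sesn2 passed as lower, which made the members 30 higher and 4 lower.

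The 3 enzymes of amino acid metabolism all rose. Cth, which makes cysteine from cystathionine, stood at 51.5, 53.4 and 55.3 CPM in vehicle and 177, 179 and 178 CPM in PB, the second largest rise of the members at 1.88 ± 0.04. Asns, asparagine synthetase, stood at 284, 293 and 303 CPM in vehicle and 577, 581 and 581 CPM in PB, a rise of 1.12 ± 0.02. Gpt2, a mitochondrial alanine transaminase, rose 1.51-fold.

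All 4 secreted or surface genes rose as well. Gdf15, a stress-induced hormone, was scarce, at 3.82, 3.26 and 3.0 CPM in vehicle and 9.07, 9.97 and 8.89 CPM in PB, a rise of 1.61 ± 0.15. Vldlr, the very low density lipoprotein receptor, rose 1.38-fold, and Stc2, a secreted stanniocalcin, 1.24-fold. Fgf21, another stress-induced hormone, stood near 1 CPM or below, at 0.606, 0.586 and 0.562 CPM in vehicle and 1.07, 0.793 and 1.22 CPM in PB. Its log2 fold change of 0.94 ± 0.38 passed narrowly (adjusted p = 0.021), and it no longer passed without vehicle replicate 3 (0.052), PB replicate 1 (0.057) or PB replicate 3 (0.11), each an adjusted p.

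The 12 listed tRNA synthetases all rose. Nars, for asparagine, had the largest rise, from 396, 402 and 412 CPM in vehicle to 927, 944 and 923 CPM in PB, a log2 fold change of 1.35 ± 0.02. Aars rose 2.19-fold in the fit, with a mean of 289 CPM in vehicle and 575 CPM in PB. Gars, for glycine, rose 2.16-fold (means 249 and 488 CPM) and Wars, for tryptophan, 2.12-fold (means 95.5 and 183 CPM). Tars (threonine), Iars (isoleucine), Eprs (glutamate and proline) and Yars (tyrosine) rose 2.08-fold, 2.02-fold, 1.87-fold and 1.85-fold. The smallest rises were those of Sars (serine), Mars (methionine), Lars (leucine) and Cars (cysteine), at 1.71-fold, 1.6-fold, 1.56-fold and 1.51-fold. Their median log2 fold change was 0.96. None of the 12 overlapped between vehicle and PB, where 74.7% of all genes tested did not overlap. Xpot, which exports tRNA from the nucleus, rose 1.35-fold.

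Synthetases outside the 12 are given for comparison, and the difference between lists was not tested. These and the further lists under PB are read against 36.5% of all genes tested higher and 36.8% lower. Of 8 other cytosolic synthetases, 7 rose and 1 did not pass, with a median log2 fold change of 0.22, led by Farsb at 0.80 ± 0.03, Rars at 0.76 ± 0.03 and Vars at 0.73 ± 0.02. The one that did not pass was Dars, for aspartate, at -0.01 ± 0.03. Of 17 mitochondrial synthetases, 3 rose and 7 fell with a median of 0.00, with Pars2 at -1.72 ± 0.13 and Ears2 at -1.29 ± 0.12. The 3 that rose were Sars2, Fars2 and Tars2, at 0.58, 0.35 and 0.12. Of 3 scaffold proteins of the multi-synthetase complex, Aimp1 and Eef1e1 rose by 0.38 and 0.20 and Aimp2 fell by 0.58 on the log2 scale.

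**Figure D2:**
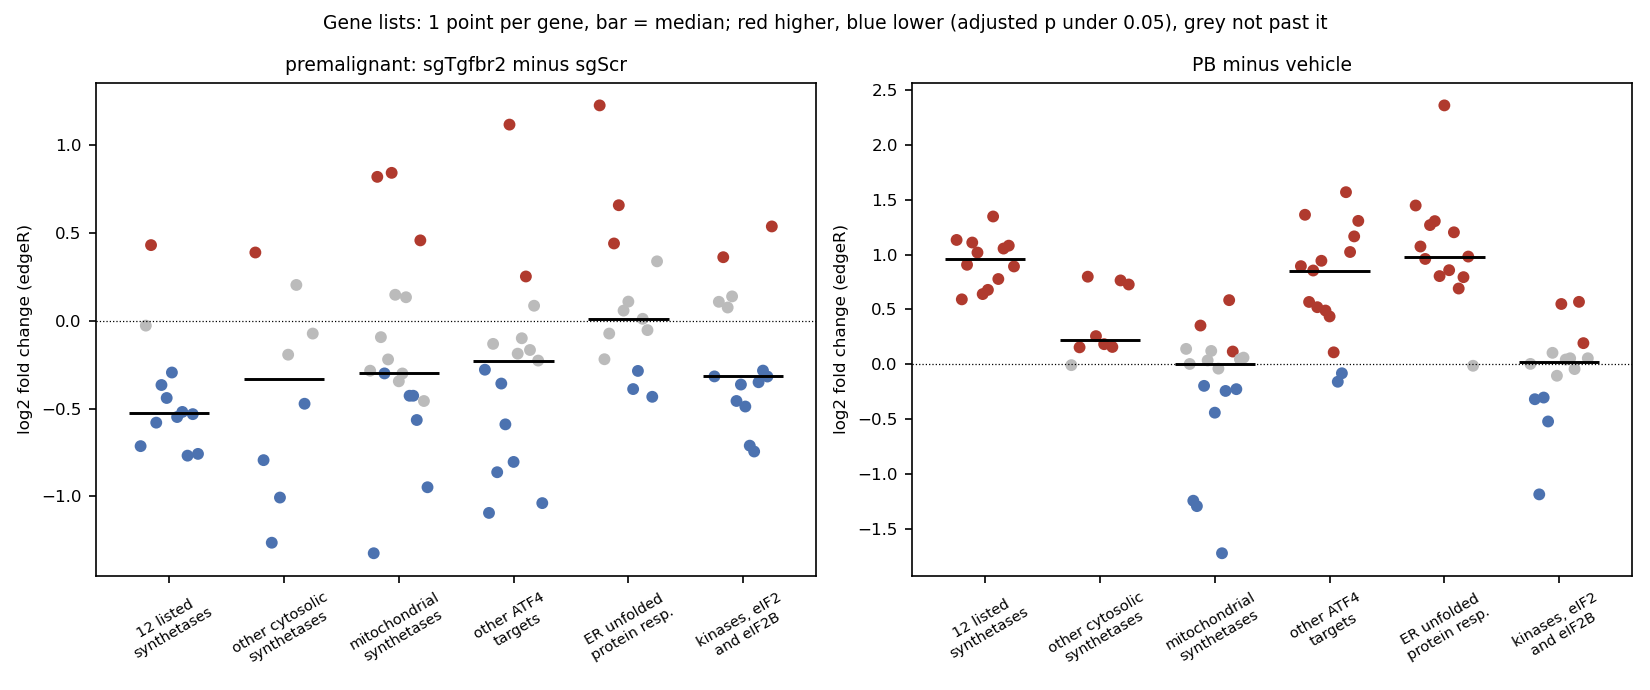
Log2 fold change (edgeR) of each tested gene in 6 lists, for premalignant sgTgfbr2 minus sgScr on the left and PB minus vehicle on the right; points are genes, bars list medians, red and blue mark genes higher and lower at adjusted p under 0.05. Under PB the median is 0.96 for the 12 listed synthetases, 0.22 for other cytosolic ones and 0.00 for mitochondrial ones.

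Other targets of ATF4 and the chaperones of the endoplasmic reticulum were also higher under PB. Of 15 other ATF4 targets, 13 rose and 2 fell, with a median log2 fold change of 0.85. The largest were Slc3a2, the heavy chain of amino acid exchangers, at 1.57 ± 0.02, Mthfd2, a mitochondrial folate enzyme, at 1.36 ± 0.03 and Slc7a5, the large neutral amino acid transporter LAT1, at 1.31 ± 0.02. The 2 that fell were the glutamine carriers Slc1a5 and Slc38a2, at -0.16 and -0.08. Of 13 genes of the endoplasmic reticulum unfolded protein response, 12 rose and 1 did not pass, with a median of 0.98. Hspa5, the chaperone BiP, was at 2.36 ± 0.02, Atf6, a sensor of that response, at 1.45 ± 0.03 and Herpud1, a degradation factor, at 1.30 ± 0.03, while Xbp1 at -0.01 ± 0.04 did not pass.

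Upstream of ATF4 the values were mixed. Of 14 genes for eIF2 kinases, eIF2, its exchange factor eIF2B and regulators of eIF2 phosphorylation, 3 rose and 4 fell, with a median log2 fold change of 0.02. Eif2ak2, the kinase PKR, was at -1.19 ± 0.04, and Eif2s2 and Eif2b3 rose by 0.57 and 0.55. The 4 that fell were all kinase genes, named here after their values were seen: besides Eif2ak2 they were Eif2ak4 (GCN2) at -0.52, Eif2ak1 (HRI) at -0.32 and Eif2ak3 (PERK) at -0.30. Markers of other cell types were measured in both arms: summed muscle markers were 14.7 to 16.0 CPM in vehicle and 7.20 to 8.11 CPM in PB, gastric gland markers 2.91 to 4.5 and 1.09 to 1.72 CPM, and fibroblast markers 0.375 to 0.521 and 0.193 to 0.727 CPM. Immune markers summed to 38.6 to 43.9 and 39.4 to 46.2 CPM and endothelial markers to 0.424 to 1.56 and 0.600 to 0.793 CPM, with Adgre1, Lyz2, Tyrobp and Emcn at 0 in both. The 3 muscle markers tested all fell, Tnni2 from a mean of 6.95 to 2.17 CPM, Mylpf from 6.66 to 4.84 CPM and Tnnc2 from 0.878 to 0.349 CPM. Of 9 squamous markers 5 fell and 2 rose, with Krt4 from a mean of 390 to 102 CPM and Krt13 from 1246 to 635 CPM, and their sum was 11964 to 12151 CPM in vehicle and 10003 to 10093 CPM in PB. The part of these markers in the members' values was not tested.

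In premalignant organoids the comparison of sgTgfbr2 with sgScr asks how the program stood after targeting of Tgfbr2 and before tumor formation. Most of the program was lower: 18 of 33 members tested fell, 3 rose and 12 did not pass, and Fgf21 was too scarce to test. Over all 13098 genes tested 46.2% passed, 22.7% higher and 23.5% lower. The members' median log2 fold change was -0.37, against 0.00 over all genes. The largest falls were those of Cth, Atf5, Trib3 and Atf4, 10 of the 12 listed synthetases fell, and Atf3 rose 2.05-fold. The fit takes the 4 sgTgfbr2 libraries as independent, although the lines differed by more than libraries within a line (chi-square per degree of freedom over genes 38.1 to 57.7 between lines and 6.42 to 7.10 within). With counts summed per line, 16 members fell and 2 rose, and 4343 genes passed in all, against 6057; Jdp2, Iars and Mars no longer passed (adjusted p = 0.12, 0.052 and 0.076).

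Atf4 stood at 409, 453 and 383 CPM in sgScr, at 283 and 259 CPM in line 1 and at 210 and 219 CPM in line 2. All 4 sgTgfbr2 libraries lay under the sgScr libraries, where 51.2% of all genes tested did not overlap, with a log2 fold change of -0.85 ± 0.12 (adjusted p = 0.00083). Atf5 stood at 66.8, 72.7 and 53.8 CPM in sgScr, 29.6 and 21.7 CPM in line 1 and 15.6 and 18.5 CPM in line 2, a log2 fold change of -1.67 ± 0.21. Atf3 stood at 68.3, 71.4 and 69.8 CPM in sgScr, 186 and 159 CPM in line 1 and 131 and 124 CPM in line 2, a rise of 1.03 ± 0.14 without overlap. Jdp2, at 9.90, 7.67 and 10.7 CPM in sgScr and 12.5 to 13.6 CPM in the 4 sgTgfbr2 libraries, passed narrowly at 0.40 ± 0.14 (adjusted p = 0.039). That call was lost without any of 6 of the 7 libraries, sgScr replicate 3 being the exception, with adjusted p from 0.054 to 0.14.

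Ddit3 differed between the lines, with 19.7, 26.6 and 39.2 CPM in sgScr, 23.4 and 27.6 CPM in line 1 and 44.5 and 49.1 CPM in line 2. The pooled groups overlapped, and the log2 fold change of 0.28 ± 0.29 did not pass (adjusted p = 0.47). Fitted alone against sgScr, line 2 was higher at 0.64 ± 0.20 (adjusted p = 0.014), with both libraries above every sgScr library, and line 1 did not pass at -0.21 ± 0.22. Cebpb, Cebpg and Nupr1 had log2 fold changes of -0.04, 0.11 and -0.23 and did not pass.

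Of the feedback and growth regulators, 2 of 6 fell and 4 did not pass. Trib3 stood at 45.3, 49.4 and 56.6 CPM in sgScr, 30.0 and 31.0 CPM in line 1 and 20.2 and 24.3 CPM in line 2, a log2 fold change of -1.0 ± 0.15. Eif4ebp1 fell from a mean of 239 to 192 CPM, -0.38 ± 0.08. Chac1 also differed between the lines, with 27.2, 24.0 and 32.4 CPM in sgScr, 34 and 33.5 CPM in line 1 and 10.7 and 15.5 CPM in line 2, and its pooled log2 fold change of -0.32 ± 0.36 did not pass. Line 2 alone was lower than sgScr at -1.17 ± 0.17 (adjusted p = 0.0001), and line 1 alone did not pass at 0.24 ± 0.12. Ppp1r15a, Sesn2 and Ddit4, at 0.07, 0.22 and -0.02, did not pass.

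All 3 enzymes of amino acid metabolism fell. Cth had the largest difference of the members, with 70.7, 70.3 and 61.3 CPM in sgScr, 27.7 and 29.0 CPM in line 1 and 13.5 and 14.6 CPM in line 2, a log2 fold change of -1.74 ± 0.26. Asns stood at 290, 315 and 320 CPM in sgScr, 240 and 256 CPM in line 1 and 203 and 236 CPM in line 2, a log2 fold change of -0.47 ± 0.10. Gpt2 fell from a mean of 63.2 to 49.5 CPM. Gdf15, Stc2 and Vldlr, the tested secreted or surface genes, did not pass.

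Among the synthetases the lowest were Tars and Yars. Tars stood at 204, 214 and 182 CPM in sgScr, 137 and 129 CPM in line 1 and 110 and 117 CPM in line 2, a log2 fold change of -0.77 ± 0.11. Yars stood at 165, 161 and 149 CPM in sgScr, 107 and 109 CPM in line 1 and 88.8 and 88.5 CPM in line 2, a log2 fold change of -0.76 ± 0.10. Aars, Gars, Nars, Wars, Sars, Lars, Iars and Mars fell with log2 fold changes from -0.71 to -0.29, and Xpot fell by 0.61. The Nars call was lost without sgScr replicate 1 (adjusted p = 0.051) or sgScr replicate 2 (0.060). Eprs was the synthetase that rose, from 242, 233 and 251 CPM in sgScr to 362 and 366 CPM in line 1 and 316 and 325 CPM in line 2, at 0.43 ± 0.08, and Cars did not pass at -0.03 ± 0.07.

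**Figure D3:**
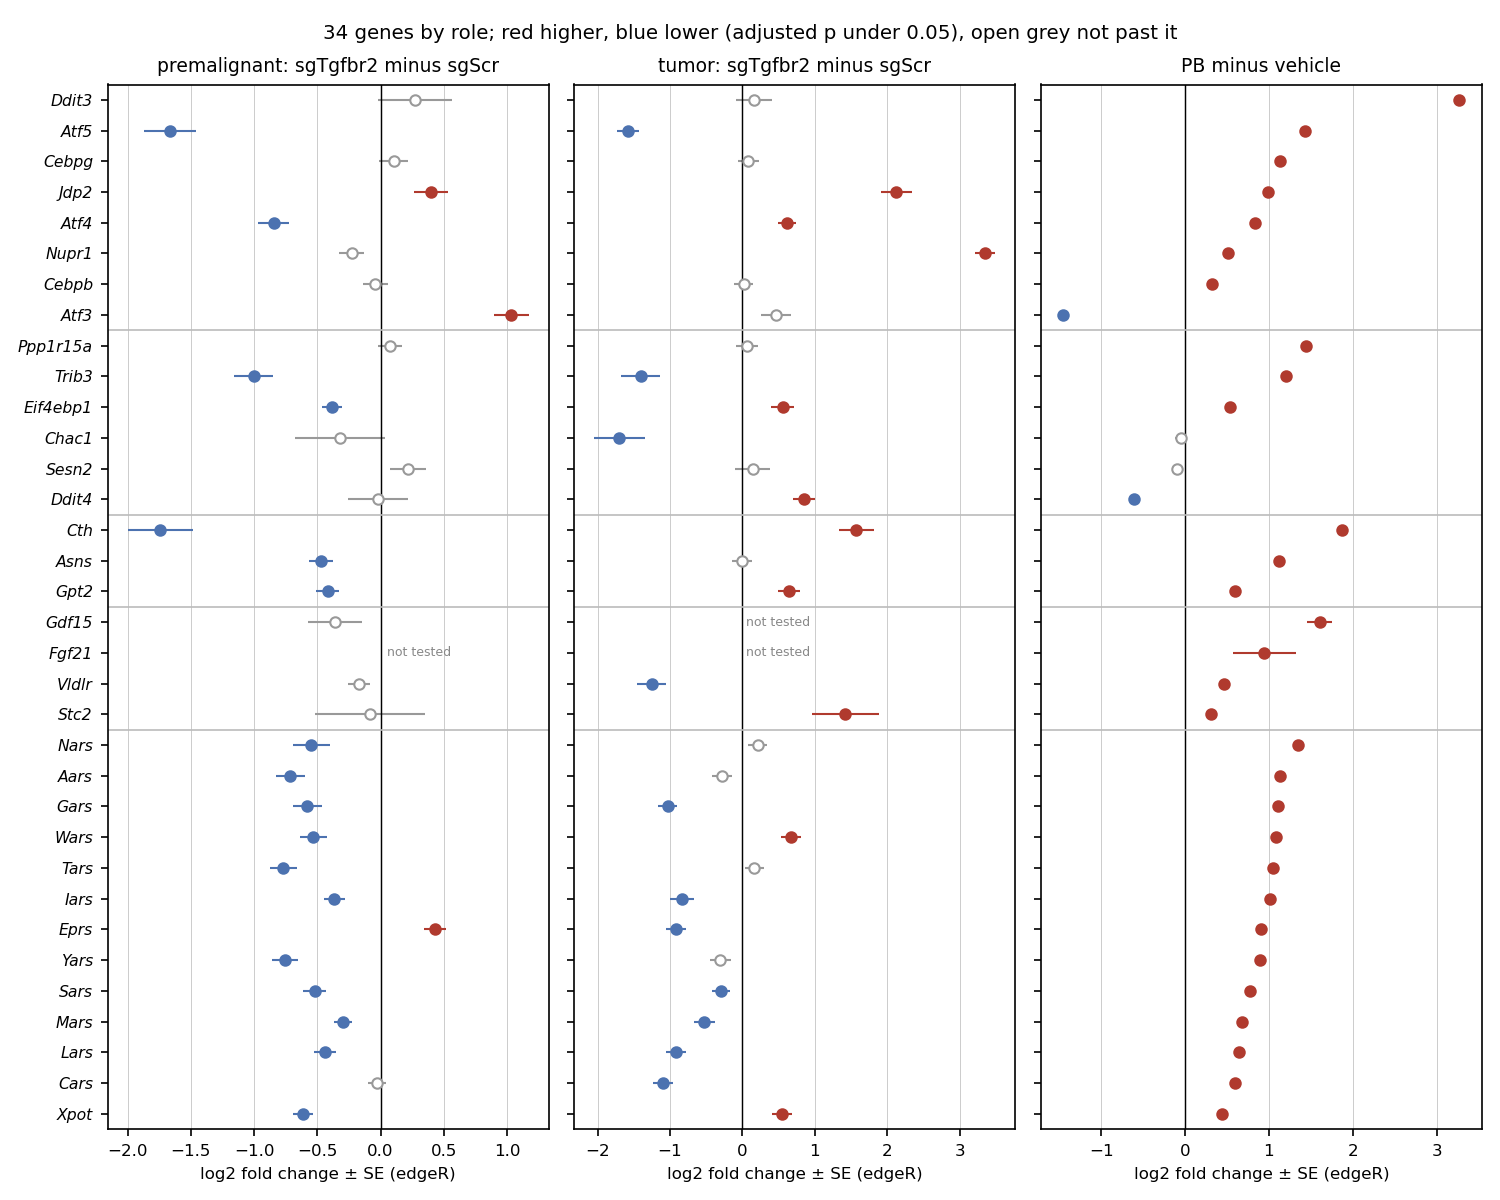
Log2 fold change ± SE (edgeR) of the 34 members, grouped by role with grey rules between groups, in the premalignant, tumor and PB comparisons; red and blue filled points are higher and lower at adjusted p under 0.05 and open grey points did not pass. The horizontal scales differ between panels; 18 points are blue in the premalignant panel and 30 are red in the PB panel.

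Lists next to the program moved lower in part, where 22.7% of all genes tested were higher and 23.5% lower. Of 15 other ATF4 targets, 7 fell and 2 rose, with Mthfd2 at -1.10 ± 0.15, Slc7a5 at -1.04 ± 0.17 and Pycr1, a proline enzyme, rising by 1.12 ± 0.22. Of 14 genes of eIF2, its kinases and its exchange factor, 9 fell and 2 rose: Eif2b5 and Eif2b4, subunits of the exchange factor, were at -0.74 and -0.71, and Ppp1r15b, a constitutive eIF2 phosphatase subunit, rose by 0.54. Other cytosolic synthetases had 4 of 8 lower and 1 higher, with Farsb, Hars and Farsa at -1.26, -1.01 and -0.79. Mitochondrial synthetases had 6 of 17 lower and 3 higher, with Cars2 and Yars2 at -1.32 and -0.95 and Iars2 at 0.84. Eef1e1 and Aimp2, 2 of 3 scaffold genes, fell by 0.76 and 0.72. The unfolded protein response list was split, with 3 higher, 3 lower and a median log2 fold change of 0.01; Atf6, Herpud1 and Ern1 were the ones that rose, at 1.23, 0.66 and 0.44. Of 9 squamous markers 5 fell, 2 rose and 2 did not pass. Their sum was 11758 to 12527 CPM in sgScr and 5941 to 8951 CPM in sgTgfbr2, and their part in these values was not tested.

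The 18 members that fell in premalignant sgTgfbr2 were all among the 30 that rose under PB, which is 18 of 18 of the first list and 18 of 30 of the second. These comparisons share no library, and 30 of all 34 members rose under PB. Atf3 was higher in the first comparison and lower in the second.

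The 2 sgTgfbr2 lines were not alike. In line 2 against line 1, 13 of 34 members were lower, 2 were higher and 19 did not pass, where 26.3% of all 13438 genes tested passed, 13.2% higher and 13.1% lower. The members' median log2 fold change was -0.18, against 0.00 over all genes. Squamous markers moved with this difference: 6 of 9 were higher in line 2 and 3 did not pass, and their sum was 5941 to 6125 CPM in line 1 and 8765 to 8951 CPM in line 2. Immune markers summed to 35.2 to 37.7 CPM in line 1 and 58.9 to 60.9 CPM in line 2. Most of both sums was Cd68, at 31.2 and 32.1 CPM in line 1 and 52.3 and 55.4 CPM in line 2. Lyz2, Tyrobp, Adgre1 and Cd3e were at 0 in all libraries of both lines. The part of these markers in the members' values was not tested. With 2 libraries on each side the call counts depend on single libraries: 4 members were lower without line 1 replicate 1, 7 without line 1 replicate 2, 5 without line 2 replicate 1 and 7 without line 2 replicate 2.

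Stc2 differed most, with 48.9 and 41.4 CPM in line 1 and 13.9 and 12.4 CPM in line 2, a log2 fold change of -1.77 ± 0.13. The sgScr libraries, at 31.8, 28.4 and 28.1 CPM, lay between the lines, which did not overlap, as held for 69.1% of all genes tested. Against sgScr line 1 alone was higher at 0.58 ± 0.11 (adjusted p = 0.0016) and line 2 alone lower at -1.23 ± 0.13 (adjusted p = 6.7e-06). Chac1, with the values above, was at -1.38 ± 0.17 and Cth at -1.01 ± 0.13. Nars stood at 350 and 366 CPM in line 1 and 246 and 259 CPM in line 2, -0.50 ± 0.09, while Atf5 and Trib3 were at -0.59 ± 0.18 and -0.45 ± 0.13. The Atf5 call was lost without line 1 replicate 1 or either replicate of line 2, and the Trib3 call without either replicate of line 1 or line 2 replicate 1, with adjusted p from 0.057 to 0.33.

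Ddit3 and Ddit4 were the 2 members higher in line 2. Ddit3, with the values above, was at 0.88 ± 0.21, and its call was lost without line 1 replicate 1 (adjusted p = 0.090) or line 2 replicate 2 (0.072), and with DESeq2 (0.052). Ddit4 stood at 314 and 337 CPM in line 1 and 556 and 606 CPM in line 2, 0.84 ± 0.13, with sgScr libraries at 428, 359 and 530 CPM. Against sgScr, line 1 alone was lower at -0.47 ± 0.13 (adjusted p = 0.0097) and line 2 alone higher at 0.34 ± 0.13 (adjusted p = 0.037). Of the neighbouring lists, 9 of 15 other ATF4 targets were lower in line 2 and 1 higher, with Slc7a11, the cystine transporter, at -0.98 ± 0.09. Fitted alone against sgScr, line 1 had 5 members higher and 19 lower, and line 2 had 4 higher and 21 lower. Over all genes tested 49.2% passed for line 1, 25.3% higher and 24% lower, and 56.3% for line 2, 27.7% higher and 28.5% lower.

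**Figure D4:**
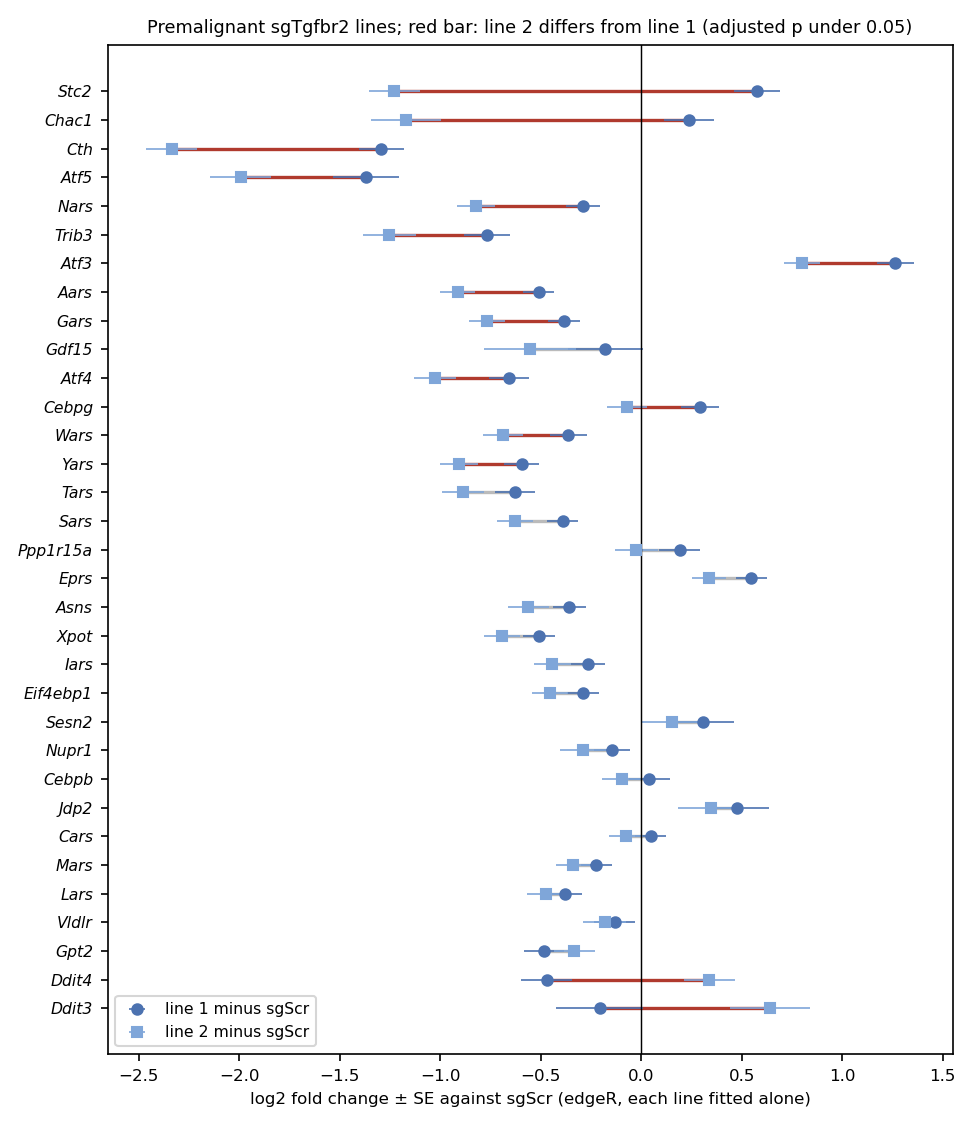
Log2 fold change ± SE against sgScr (edgeR, each line fitted alone) of the members tested in both fits, in premalignant sgTgfbr2 line 1 (circles) and line 2 (squares); a red bar joins lines that differ at adjusted p under 0.05. Among the members with a red bar, Stc2, Chac1, Cebpg, Ddit4 and Ddit3 have the 2 lines on opposite sides of 0, and both lines share the same 3 sgScr libraries.

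Between the libraries labelled tumor sgTgfbr2 and tumor sgScr the values were divided. Of 32 members tested 10 rose, 11 fell and 11 did not pass, where 60.3% of all 15091 genes passed, 29.8% higher and 30.5% lower, so the members' share called is near the background. Their median log2 fold change was 0.07, against -0.02 over all genes. Nupr1 rose 10.2-fold, and Jdp2, Cth, Stc2, Ddit4, Atf4 and Wars were also higher. Chac1, Atf5, Trib3, Vldlr and 7 synthetases fell. Muscle and gastric gland markers differed between these groups as given above. Fibroblast markers summed to 2859 to 3046 CPM in sgScr and 2301 to 2357 CPM in sgTgfbr2. Immune markers summed to 891 to 912 and 734 to 760 CPM, and endothelial markers to 114 to 131 and 114 to 117 CPM. Squamous markers summed to 124696 to 132932 and 30356 to 30823 CPM, but of the 9 only 5 fell and 4 rose. Most of the sgScr sum was Krt4 and Krt13. Krt4 stood at 61317 to 66894 CPM in sgScr and 3985 to 3986 CPM in sgTgfbr2, and Krt13 at 54608 to 57360 and 7643 to 7760 CPM. Krt6a, which rose, stood at 352 to 415 and 8384 to 8590 CPM, and Krt14 at 995 to 1182 and 5315 to 5941 CPM. The part of all these markers in the members' values was not tested. In bulk samples fewer cells of a type and less RNA per cell cannot be told apart. Scaling by library totals moved the median of all genes to 0.26 and the calls over all genes to 6046 higher and 3361 lower, and gave 15 members higher and 9 lower.

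Nupr1 stood at 29.7, 32.4 and 26.4 CPM in sgScr and at 388 and 349 CPM in sgTgfbr2, a log2 fold change of 3.35 ± 0.14. Jdp2 stood at 9.87, 6.30 and 6.0 CPM in sgScr and 40.7 and 38.0 CPM in sgTgfbr2, a rise of 2.13 ± 0.21. Atf4 stood at 187, 193 and 180 CPM in sgScr and 364 and 337 CPM in sgTgfbr2, a rise of 0.62 ± 0.12 (adjusted p = 0.00019). For these 3 factors the groups did not overlap, which held for 74.3% of all genes tested. Atf5 stood at 126, 96.9 and 98.0 CPM in sgScr and 45.9 and 40.9 CPM in sgTgfbr2, a log2 fold change of -1.58 ± 0.15. Ddit3 was low, at 8.5, 10.2 and 9.15 CPM in sgScr and 15.5 and 9.68 CPM in sgTgfbr2, and did not pass at 0.16 ± 0.25. Atf3, at 10.2, 8.94 and 10.6 CPM and 16.6 and 16.7 CPM, had a log2 fold change of 0.46 ± 0.21 and did not pass (adjusted p = 0.060), though it passed as higher under library-total scaling and with limma-voom.

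Chac1 had the largest fall, from 10.7, 6.86 and 8.20 CPM in sgScr to 1.84 and 4.64 CPM in sgTgfbr2, -1.70 ± 0.35. Trib3 stood at 15.3, 10.8 and 9.27 CPM in sgScr and 5.91 and 4.92 CPM in sgTgfbr2, -1.40 ± 0.27. Ddit4 stood at 33.5, 27.1 and 27.4 CPM and at 62.4 and 67.1 CPM, a rise of 0.86 ± 0.15, and Eif4ebp1 rose by 0.55 ± 0.16. The Eif4ebp1 call was lost without sgTgfbr2 replicate 1 (adjusted p = 0.22).

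Cth stood at 5.07, 5.10 and 4.10 CPM in sgScr and 18.8 and 15.8 CPM in sgTgfbr2, a rise of 1.58 ± 0.24, while Asns, at 55.4, 58.3 and 57.4 CPM and 64.3 and 74.2 CPM, did not pass at -0.01 ± 0.14. Gpt2 rose 1.56-fold. Stc2 was scarce, at 1.74, 1.81 and 0.653 CPM and 4.56 and 4.75 CPM, with a rise of 1.42 ± 0.46. Vldlr stood at 18.4, 21.1 and 23.4 CPM and at 10.0 and 11.5 CPM, -1.25 ± 0.20. Gdf15, at 0.0528, 0.0927 and 0.356 CPM and 0.325 and 1.34 CPM, was too low to test. Fgf21 was not tested either: it had 0 counts in sgScr replicates 1 and 3, which allows up to 0.158 and 0.178 CPM (3 counts, counting error only), and 0.325 and 0.392 CPM in sgTgfbr2.

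Of the 12 synthetases 7 fell and 1 rose. Cars stood at 113, 120 and 106 CPM in sgScr and 61.6 and 67.7 CPM in sgTgfbr2, -1.10 ± 0.14. Gars stood at 203, 216 and 208 CPM and at 129 and 120 CPM, -1.03 ± 0.13. Eprs, Lars, Iars, Mars and Sars had log2 fold changes of -0.92, -0.91, -0.83, -0.53 and -0.30. Sars overlapped between the groups in CPM of the library total and was no longer called under library-total scaling (-0.01) or without any of 4 of the 5 libraries, sgScr replicate 1 being the exception, with adjusted p from 0.060 to 0.24. Wars, which interferon also induces, rose from 43.1, 40.5 and 42.3 CPM to 75.2 and 87.8 CPM, 0.67 ± 0.14. Aars, Nars, Tars and Yars did not pass.

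The other lists in the libraries labelled tumor are read against 29.8% of all genes tested higher and 30.5% lower. Of 15 other ATF4 targets 9 rose and 3 fell, with Pycr1 and Pck2 at 2.05 and 2.02 and Phgdh, the first enzyme of serine synthesis, at -1.67. Other cytosolic synthetases had 7 of 8 lower and 1 higher, with Rars and Hars at -1.47 and -1.26 and Vars at 1.83. Mitochondrial synthetases had 6 of 17 lower (35.3%) and 3 higher (17.6%), with Vars2 at 2.08 and Sars2 at -0.97. Of the eIF2 list 4 rose and 3 fell, with Eif2ak3 at 1.46, Eif2ak1 at 0.81 and Eif2b4 at -0.92. The unfolded protein response had 3 higher and 4 lower, with Herpud1 at 1.39, Dnajb9 at 0.74 and Xbp1 at -1.04, and Aimp2 and Aimp1 of the scaffold fell by 0.49 and 0.44.

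The difference between the sgTgfbr2 effect in tumor and in premalignant organoids was tested over the 12 libraries of both tables. It passed for 22 of 34 members, 15 with a higher and 7 with a lower effect in tumor, where 49.5% of all 15671 genes passed, 25% higher and 24.5% lower. Atf4 was lower with sgTgfbr2 in premalignant organoids and higher in the libraries labelled tumor, and the difference of 1.46 ± 0.17 on the log2 scale passed (adjusted p = 6e-06). Cth also turned direction, with a difference of 3.31 ± 0.36, and Eprs turned the other way, at -1.36 ± 0.14. Trib3 and Atf5 were lower in both comparisons, and their differences of -0.41 ± 0.29 and 0.08 ± 0.28 did not pass. Without premalignant sgScr replicate 1 or tumor sgTgfbr2 replicate 1 the members with a lower effect in tumor numbered 4, and scaling by library totals gave 16 with a higher and 3 with a lower effect. Stage and table coincide here, and so do the marker and Myc values of the 5 libraries labelled tumor, so these and a difference between stages cannot be told apart.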

How the data were processed

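The authors deposited 3 comparison tables of whole-number counts per gene and library. The submitters' processing notes name the build mm10, the aligner STAR (2.6.0a) and DESeq2 (1.26.0), and the sources used here give no counting tool, annotation or strand setting. The tables' 18 columns of normalized values were not used. Levels are CPM, counts scaled to a library total of 1e+06, without the TMM scaling from which the fold changes come. Within each table, genes with low counts were removed (edgeR filterByExpr, minimum count 10), libraries were scaled by TMM and groups compared with edgeR 4.0.16 (quasi-likelihood, R 4.3.3), Benjamini-Hochberg threshold 0.05 over all genes tested. The fits were tried on simulated data for sign, size and false calls. A first requirement on recovery over all genes was not met for the difference between stages and was narrowed to more abundant genes. Recovery fell with low counts and high spread. The standard error is the log2 fold change divided by the square root of F. DESeq2 1.42.0, limma-voom (limma 3.58.1), other scaling and filters, single lines and left-out libraries were alternatives. Replicates differed by more than counting noise, least in vehicle and PB, so none were merged. Values were given in every library for Atf4, Ddit3, Asns, Trib3, Chac1 and, per comparison, the 6 members called with the largest change in each direction; of each other list up to 3 genes with the largest change were named, except 1 that is not reported here. Members and lists were chosen with earlier results of these data known. Promoter windows came from RefSeq (GRCm38.p6), matched by symbol or gene ID.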

Additional observations from a re-analysis of the deposited data

Results flagged for a closer look

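In the 4 premalignant sgTgfbr2 libraries 3 of 34 members had a library far from the other 3 by Dixon's criterion. Chance meets it in about 1 of 20 groups of like libraries. These 4 libraries come from 2 lines that differed, so that rate need not hold here. Cebpb stood at 142 CPM in line 1 replicate 2. Gdf15 stood at 3.86 CPM and Nupr1 at 111 CPM in line 2 replicate 1, both the lowest of their group.

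The effect of sgTgfbr2 differed between the libraries labelled tumor and the premalignant ones for 22 of 34 members (edgeR, adjusted p under 0.05). Of all 15671 genes tested 49.5% passed. As log2 differences, tumor minus premalignant, the 7 lower were Eprs -1.36, Vldlr -1.09, Cars -1.08, Atf3 -0.58, Lars -0.48, Iars -0.48 and Gars -0.46. Among the 15 higher, the regulators and metabolic genes were Asns at 0.45, Ddit4 at 0.86, Eif4ebp1 at 0.93, Gpt2 at 1.05, Atf4 at 1.46, Jdp2 at 1.72, Gdf15 at 2.41, Cth at 3.31 and Nupr1 at 3.57. The tRNA genes among them were Aars at 0.42, Yars at 0.45, Nars at 0.75, Tars at 0.92, Xpot at 1.14 and Wars at 1.19. Gdf15 had 6 or fewer counts in each tumor sgScr library, so its fitted difference rests on very few counts and gives no size.

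The effect also differed between line 2 and line 1 for 15 of 34 members, where 26.3% of all 13438 genes tested passed. This is the direct difference of the lines since both use the same sgScr libraries. As log2 differences, line 2 minus line 1, the 13 lower were Stc2 -1.77, Chac1 -1.38, Cth -1.01, Atf5 -0.59, Nars -0.50, Trib3 -0.45, Atf3 -0.43, Aars -0.37, Gars -0.35, Atf4 -0.33, Cebpg -0.33, Wars -0.29 and Yars -0.28. Ddit4 at 0.84 and Ddit3 at 0.88 were higher.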

How the results depend on the processing

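With each library left out in turn, members called higher and lower numbered 2 to 3 and 17 to 18 in the premalignant comparison, 9 to 10 and 10 to 11 in tumor, 29 to 30 and 2 under PB, 1 to 2 and 4 to 15 between lines, and 11 to 16 and 4 to 8 for the difference between stages. The members' median log2 fold change then ran from -0.41 to -0.33, 0.025 to 0.12, 0.87 to 0.90, -0.27 to -0.15 and 0.20 to 0.37. Scaling by library totals gave medians of 0.36 in tumor, 0.76 under PB and 0.54 between stages, with 4 members lower under PB and 3 lower between stages. A filter of 1 CPM gave medians of 0.89 under PB, -0.21 between lines and 0.21 between stages, and no filter gave -0.21 between lines. DESeq2 called 1 member higher between lines. A minimum change of 1 on the log2 scale, either way, left 1 higher and 3 lower in the premalignant comparison, 4 and 6 in tumor, 14 and 1 under PB, 0 and 3 between lines and 8 and 3 between stages. Line 1 alone gave 5 members higher, and line 2 alone a median of -0.46. Ddit4 (-0.02 pooled) was lower in line 1 alone at -0.47 and higher in line 2 alone at 0.34, and Stc2 (-0.09 pooled) was higher in line 1 alone at 0.58 and lower in line 2 alone at -1.23. Counts summed per line gave 2 members higher and 16 lower. Same-numbered libraries did not deviate together (correlations -0.10 to 0.14); with the replicate number as a block, members higher and lower were 2 and 18 in the premalignant comparison, 9 and 10 in tumor, 30 and 2 under PB and 2 and 16 between lines, and calls over all genes between lines were 5365 against 3535. No member called in a comparison changed direction under any alternative run. The cause of these shifts was not tested. Depth limits Fgf21, Gdf15 and, in tumor organoids, Chac1 and Stc2.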
